A study of Mus musculus with 12 samples.

Results

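The hypoxia and glycolysis genes described here are a set of 37 chosen by symbol, all of which were found among the 22298 genes of the deposited count table. They comprise 6 HIF factors and regulators of HIF, 10 hypoxia targets, 4 glucose and lactate transporters and 17 glycolytic enzymes, the last group counting Pfkfb3 and Pdk1, which set the flux into and out of the pathway. Their RNA was sequenced in 4T1 cells, an established mammary carcinoma line of the BALB/c mouse. Cop1 is a subunit of an E3 ubiquitin ligase, and the study asked how its loss alters transcription with and without interferon gamma (IFNγ). There were 6 groups of 2 libraries. Cells carried a guide against the Rosa26 locus, used as the Cop1-intact control, or 1 of 2 guides against Cop1 (sgRNA1 and sgRNA2), and each of these 3 populations was kept for 24 hours in vehicle or in 20 ng/ml IFNγ. The labels do not say whether a population is a clone or a pool, nor whether the libraries of a group are separate cultures. Each p-value therefore rests on the spread between libraries of a group, which may be technical. That spread was estimated over all 12 libraries and drawn towards the trend over all genes, so it is not the spread of 1 gene in the compared libraries alone.

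The factor HIF-1, a dimer of Hif1a and Arnt, is controlled mainly through the stability of the Hif1a protein: with oxygen present, the prolyl hydroxylases Egln1 and Egln3 mark it for capture by Vhl and degradation. When it accumulates, it binds a short DNA core and raises genes for angiogenesis, pH control, mitophagy and glycolysis, so glycolytic enzymes are often read as hypoxia genes. Tumour cells also run glycolysis with oxygen present, and interferon can raise glycolytic genes in several cell types.

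Total gene counts ran from 19378070 to 32609717 per library. Cop1 itself stood at 89.7 and 98.2 CPM (read counts scaled to library size) in the Rosa26 vehicle libraries, 59.1 and 63.1 with sgRNA1 and 34.5 and 34.8 with sgRNA2. With IFNγ it stood at 80.4 and 83.3, 60.7 and 60.2, and 32.3 and 33.6 in the same order. Each guide's libraries lay below the Rosa26 libraries, and those of sgRNA2 lay below those of sgRNA1, so Cop1 RNA was reduced and not absent. The 7 epithelial markers, all detected, summed to 4040 to 4420 CPM in the vehicle libraries and 3440 to 3770 with IFNγ. Of 10 leukocyte markers, Cd3e and Adgre1 had 0 counts throughout, and the list summed to 23.5 to 40.7 CPM. It stood at 30.6 CPM in both Rosa26 vehicle libraries, at 23.5 to 26.2 in the Cop1-guide vehicle libraries, at 39.1 to 40.7 in Rosa26 with IFNγ and at 24.0 to 30.8 in the Cop1-guide libraries with IFNγ. The fibroblast list summed to 27.7 to 29.1 CPM in Rosa26 vehicle and 16.4 to 23.7 elsewhere, and the endothelial list to at most 0.987 CPM. The part of these markers in the results was not tested.

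The short core to which HIF binds was searched in the members' promoters. Members were chosen by symbol as known hypoxia and glycolysis genes, so a high share of the core among them is not independent support. The members' windows and all windows were not matched for base content. RefSeq windows of 300 bases on GRCm38.p6 (250 before to 50 after a gene's start) matched 33 of the 37 members, with 44 windows. Epas1, Ndrg1, Bnip3l and Slc2a3 had no window, so the hypoxia-target shares cover 8 genes. The letters ACGTG or GCGTG, on either strand, lay in 88.9% of the hypoxia-target windows and 74.1% of the glycolytic ones, against 43.8% of all 32851 windows. ACGTG alone lay in 77.8% of hypoxia-target windows, 40.7% of glycolytic windows and 19.6% of all windows. A match is a description of the letters, and ACGTG is also contained in CACGTG, the E-box bound by other factors. The AP-1 letters TGANTCA lay in 4.55% of member windows against 7.81% of all windows, with matches only at Car9 and Aldoa.

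The following sites, a selection, carry the core in capitals at members whose values the results turn on. Each is written 5′ to 3′ on the gene's own strand, with 10 bases on each side of the match.
Car9, chr4:43506998-43507022, plus strand: atttccgatgCACGTacagcccgtc
Ddit4, chr10:59951943-59951967, minus strand: aacgttgcgaACGTGcgcccggtgc
Ddit4, chr10:59951871-59951895, minus strand: cctggaggggGCGTGgcctcgccgg
Pfkfb3, internal start, chr2:11502128-11502153, minus strand: cccttctctcCACGTGaaagggggct
Pfkfb3, upstream start, chr2:11553975-11553999, minus strand: ccgcgccgtgACGTGccaagctgtg
Egln3, chr12:54204089-54204113, minus strand: tgcatctcagACGTGagatccaggt
Slc2a1, chr4:119108674-119108698, plus strand: cccacagaacCACGCctctcagagt
The Car9 site and the upstream Pfkfb3 site lie within the first exons of GENCODE M21 transcripts, and the others lie outside annotated exons. The Pfkfb3 match at the internal start is a full CACGTG. The Vegfa matches lay in the window of an internal start, within an annotated exon, and are not shown.

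With IFNγ in Rosa26 cells, Hk2 rose and Pgk1 fell (values below). Both carry the core within 250 bases of their start, as shown here in full with the core in capitals.
Hk2, chr6:82774455-82774704, minus strand: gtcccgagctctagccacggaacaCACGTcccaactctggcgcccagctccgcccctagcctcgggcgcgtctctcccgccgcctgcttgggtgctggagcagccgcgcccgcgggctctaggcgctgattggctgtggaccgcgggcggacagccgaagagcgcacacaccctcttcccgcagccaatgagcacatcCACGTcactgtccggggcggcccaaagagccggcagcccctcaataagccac
Pgk1, chrX:106186850-106187099, plus strand: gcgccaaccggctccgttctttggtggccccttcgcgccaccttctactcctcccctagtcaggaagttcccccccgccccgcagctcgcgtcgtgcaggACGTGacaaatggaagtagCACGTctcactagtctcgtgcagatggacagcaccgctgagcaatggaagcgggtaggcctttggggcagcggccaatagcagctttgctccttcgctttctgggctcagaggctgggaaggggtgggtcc
Each holds 2 matches of the core and 0 of the AP-1 letters.

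Of the 37 members, 35 passed the filter on low counts. Epas1, which encodes the second HIF alpha subunit HIF-2 alpha, had 23 counts over all 12 libraries (0 to 0.28 CPM), and Slc2a3, the neuronal-type glucose transporter, had 16 (0 to 0.21 CPM). Both were left untested. Slc16a3, the lactate exporter MCT4, passed with 84 counts over the 12 libraries (0.089 to 0.74 CPM), and its fold changes, called in no comparison, are not read. On the GRCm38 annotation, genes described most below lie at chr17:46016993-46032369 (Vegfa), chr15:66929318-66969640 (Ndrg1), chr4:43506966-43513729 (Car9), chr2:11471433-11554077 (Pfkfb3), chr6:82725025-82774454 (Hk2) and chrX:106187100-106203699 (Pgk1), and all are protein coding.

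Levels per length, as CPM per kilobase of exon, placed 1 isoform of most pairs far above the other. Pkm, the last enzyme of glycolysis, was the highest of the set at a median of 1426 CPM per kilobase, followed by Ldha (lactate dehydrogenase A) at 1280, Eno1 at 953, Pgk1 at 753 and Tpi1 at 641. Pkm libraries ran from 1319 to 1580 and Ldha libraries from 1161 to 1329, so the ranges of these neighbours overlapped, whereas Eno1 (911 to 1014) stayed below both. In Rosa26 vehicle cells, Ldhb reached a mean of 0.433% of Ldha per length, Eno2 0.367% of Eno1, Aldoc 1.22% of Aldoa and Slc16a3 0.0386% of Slc16a1. The hexokinases were closer, with Hk2 at 38.5% of Hk1 in Rosa26 vehicle and 58.1% in Rosa26 with IFNγ. Among the sensors, Egln3 and Egln1 were nearly equal, at a ratio of 96.1% in Rosa26 vehicle and 114% with sgRNA1. The range over the 12 libraries was narrow for most enzymes, at 1.11-fold for Eno1 and Tpi1 and 1.2-fold for Pkm, and wider for Car9 (2.74-fold), Vegfa (2.04-fold), Pfkfb3 (1.95-fold), Eno2 (1.92-fold) and Hk2 (1.9-fold).

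**Figure D1:**
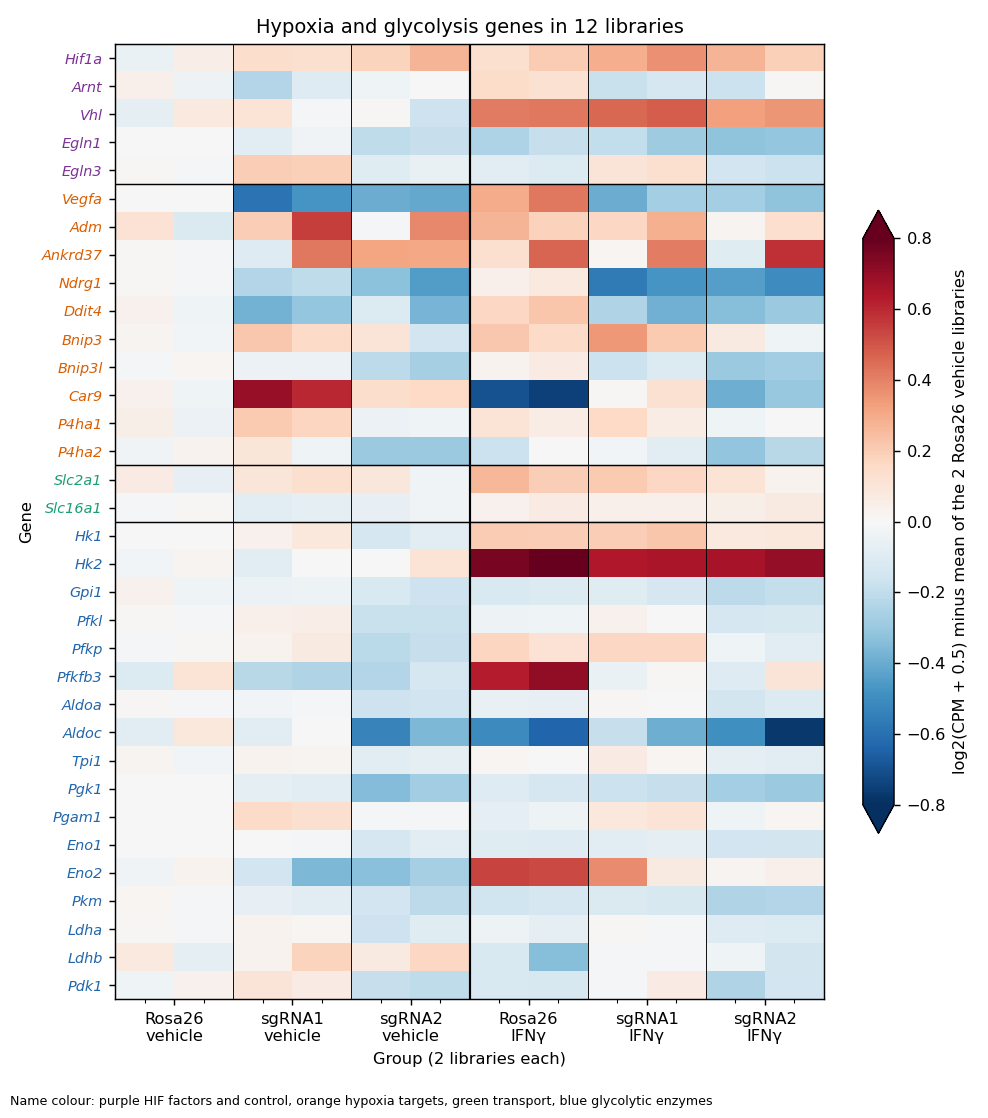
Heat map of 34 tested members (rows, coloured by role; Slc16a3 is left out for its few counts) in 12 libraries (columns, 2 per group), as log2(CPM + 0.5) minus the mean of the 2 Rosa26 vehicle libraries. Hk2 is high in all 6 IFNγ libraries, Pfkfb3 mainly in the Rosa26 IFNγ libraries, Vegfa and Ndrg1 are low in all Cop1-guide libraries, and most enzymes are bluer with sgRNA2 than with sgRNA1.

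Without IFNγ, Cop1-guide cells had lower Vegfa, Ndrg1 and Ddit4 than Rosa26 cells with either guide. In the mean of both guides Bnip3l and most glycolytic enzymes were lower and Car9 was higher, but the enzymes and Bnip3l were lower mainly with sgRNA2, and Car9 was higher mainly with sgRNA1. Over the mean of both guides, 3 members rose and 15 fell (edgeR quasi-likelihood test, p adjusted by Benjamini-Hochberg over all genes, called under 0.05). This stood against 35.8% of all 11904 tested genes (16.6% higher, 19.2% lower), and against 48.5% of genes at a mean log2 CPM of at least 5, where 28 of the members lie and 16 were called. All 4 Cop1-guide libraries lay above both controls for 3 members and below both for 13, and for 21.5% and 24.5% of all tested genes. In bulk libraries, fewer cells of a type and less RNA per cell cannot be told apart.

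Vegfa, the main angiogenic growth factor, was at 40.2 and 39.9 CPM in Rosa26 vehicle, 26.4 and 28.8 with sgRNA1 and 30.3 and 30.0 with sgRNA2. All 4 Cop1-guide libraries lay below both controls. The mean change was -0.48 log2 (SE 0.063, adjusted p = 4.91e-08) over both guides, so that Vegfa fell by 28.1%. Ndrg1, a stress-responsive gene and common hypoxia marker, was at 316 and 311 CPM in Rosa26 vehicle, 267 and 272 with sgRNA1 and 249 and 230 with sgRNA2, again with no overlap. It changed by -0.30 log2 (SE 0.031, adjusted p = 8.23e-11). Ddit4, an inhibitor of mTORC1 signalling also known as REDD1, was at 124 and 118 CPM in Rosa26 vehicle and at 92.8 to 112 CPM in the 4 Cop1-guide libraries, a change of -0.29 log2 (SE 0.056, adjusted p = 0.000378). Bnip3l, a mitophagy receptor, changed by -0.14 log2 (SE 0.029, adjusted p = 0.000126), which combined -0.048 with sgRNA1 (adjusted p = 0.287) and -0.24 with sgRNA2 (adjusted p = 5.19e-07), while its paralog Bnip3 did not pass (0.082, SE 0.058, adjusted p = 0.293).

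Car9, the cell-surface carbonic anhydrase widely used as a hypoxia marker, moved the other way. It was at 50.9 and 48.4 CPM in Rosa26 vehicle, 80.6 and 75.7 with sgRNA1 and 54.8 and 55.5 with sgRNA2, so all 4 Cop1-guide libraries lay above the controls but those of sgRNA2 only slightly. The mean change of 0.41 log2 (SE 0.053, adjusted p = 4.55e-08) combined 0.66 with sgRNA1 (adjusted p = 4.65e-12) and 0.15 with sgRNA2 (adjusted p = 0.0599), both set against the same Rosa26 libraries. The remaining hypoxia targets, Adm (a vasodilator peptide), Ankrd37, Bnip3, and the collagen prolyl hydroxylases P4ha1 and P4ha2, did not pass, at -0.13 to 0.30 log2. Ankrd37 lay at only 1.35 to 2.47 CPM over all libraries, with an SE of 0.30, so that a difference of the size seen in Vegfa was not resolved there.

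Among the HIF factors, Hif1a rose and Egln1 fell. Hif1a was at 177 and 192 CPM in Rosa26 vehicle, 203 and 201 with sgRNA1 and 209 and 223 with sgRNA2, a change of 0.18 log2 (SE 0.035, adjusted p = 5.51e-05) with no overlap. Egln1 was at 194 and 193 CPM in Rosa26 vehicle, 183 and 190 with sgRNA1 and 168 and 170 with sgRNA2, and changed by -0.13 log2 (SE 0.032, adjusted p = 0.00166), a call that sgRNA1 alone did not give (adjusted p = 0.254). Arnt, Vhl and Egln3 did not pass, at -0.096, -0.0094 and 0.058 log2. Since HIF is controlled mainly at the protein level, these are levels of RNA only.

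Of the 17 glycolytic enzymes, 1 rose and 10 fell, with a median of -0.067 log2 and a median size of 0.077, against a median size of 0.139 over all genes. The 10 hypoxia targets had a median of -0.029 and a median size of 0.294, with 1 rise and 4 falls. Whether the groups differ was not tested. The enzymes' values were unlike in the 2 guides: their median against Rosa26 vehicle was -0.00425 and 0.00398 log2 in the sgRNA1 vehicle libraries and -0.164 and -0.157 in those of sgRNA2. With sgRNA1 alone, Gpi1, Aldoa, Aldoc, Eno1 and Eno2 did not pass, and Pfkl (0.0444) and Ldha (0.0202) had the opposite sign and did not pass either. Pgk1, which makes the first ATP of the pathway, was at 1521 and 1533 CPM in Rosa26 vehicle, 1451 and 1431 with sgRNA1 and 1199 and 1261 with sgRNA2 (-0.20 log2, SE 0.021, adjusted p = 4.75e-10). Pkm changed by -0.13 log2 (SE 0.019, adjusted p = 3.19e-07) and Aldoa by -0.091 (SE 0.021, adjusted p = 0.000471). Pgam1, phosphoglycerate mutase, was the 1 that rose (0.065 log2, SE 0.024, adjusted p = 0.0344), at 489 and 488 CPM in Rosa26 vehicle, 544 and 535 with sgRNA1 and 483 and 486 with sgRNA2, so the sgRNA2 libraries lay below the controls. The other falls were Gpi1, Pfkl, Pfkfb3, Aldoc, Eno1, Eno2 and Ldha, at -0.056 to -0.28 log2.

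Of the 18 calls, 10 held in each of the 12 fits that left out 1 library: Hif1a, Egln1, Vegfa, Ndrg1, Ddit4, Bnip3l, Car9, Aldoa, Pgk1 and Pkm. Of these 10, Egln1, Bnip3l and Aldoa did not pass with sgRNA1 alone, nor Car9 with sgRNA2 alone. Without the second Rosa26 vehicle library fewer members were called, as were fewer of all genes. Pfkfb3, which read 33.9 and 39.6 CPM in the Rosa26 vehicle libraries, then stood at -0.099 log2 and lost its call.

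**Figure D2:**
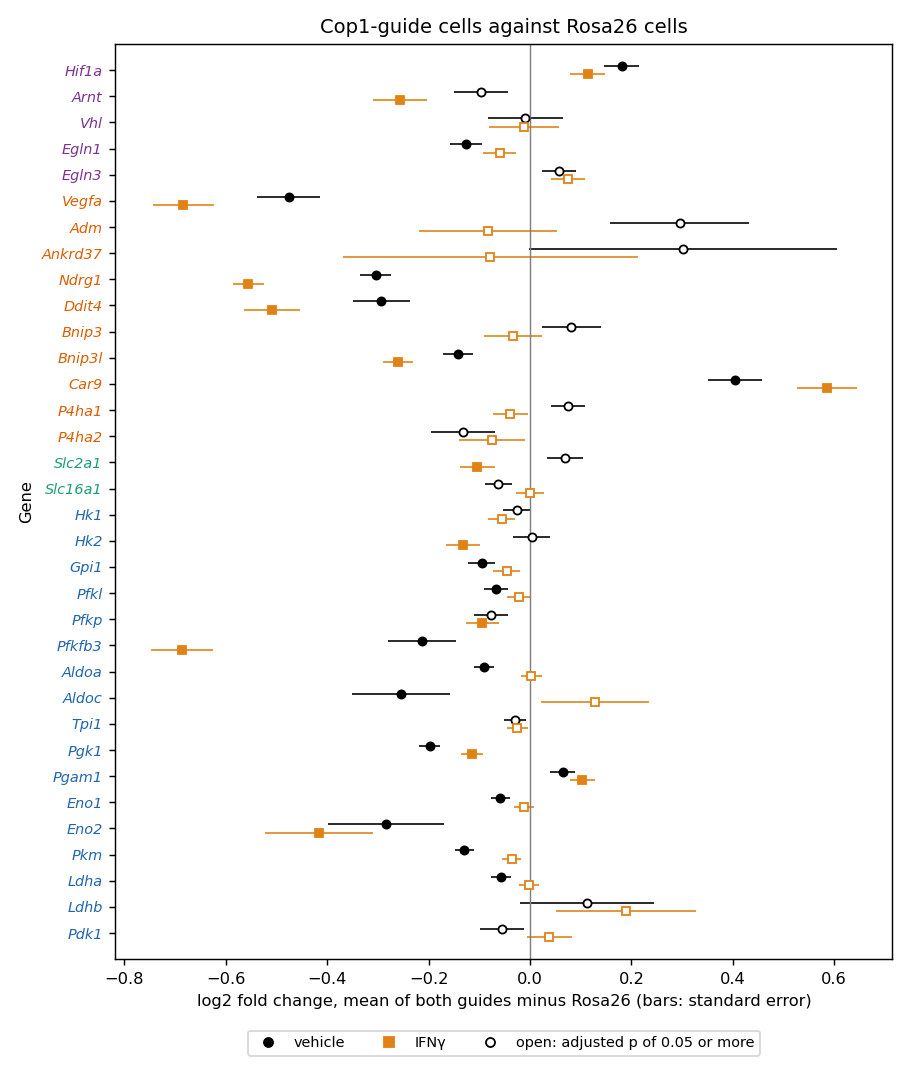
Log2 fold change of 34 members in Cop1-guide cells (mean of both guides) minus Rosa26 cells, in vehicle (black circles) and with IFNγ (orange squares), with standard errors; filled symbols have an adjusted p under 0.05. Vegfa, Ndrg1, Ddit4 and Bnip3l lie left of 0 and Car9 right of 0 in both conditions, Pfkfb3 lies at -0.21 in vehicle and -0.69 with IFNγ, and most enzymes lie within 0.2 of 0.

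With IFNγ present, the same comparison again gave lower Vegfa, Ndrg1, Ddit4 and Bnip3l and higher Car9, with the largest fall in Pfkfb3, the enzyme that makes the activator of phosphofructokinase. Here 3 members rose and 11 fell, against 40.6% of all genes called (19.8% higher, 20.7% lower). At a log2 CPM of at least 5 the background was 52.5%, and 13 of 28 members were called, which is below it. All 4 Cop1-guide libraries lay above both controls for 2 members and below both for 9, and for 23.9% and 24.7% of all tested genes. Scaling by total counts alone gave 2 higher and 18 lower members, and 1770 higher and 3135 lower of all genes. No library is shared between the vehicle and the IFNγ comparison.

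Vegfa was at 49.2 and 53.9 CPM in Rosa26 with IFNγ, 30.3 and 33.1 with sgRNA1 and 33 and 31.9 with sgRNA2 (-0.68 log2, SE 0.060, adjusted p = 1.66e-12). Ndrg1 was at 323 and 331 CPM, then 211 and 226, then 231 and 221 in the same order (-0.56 log2, SE 0.031, adjusted p = 1.03e-18). Ddit4 was at 136 and 141 CPM, then 102 and 92.4, then 95.2 and 98.4 in that order (-0.51 log2, SE 0.055, adjusted p = 4.11e-07). In each of these 3 genes every Cop1-guide library lay below both controls, and the guides did not differ past the threshold (the test between guides is given below). The summed leukocyte markers were likewise higher in the Rosa26 IFNγ libraries (39.1 to 40.7 CPM) than with either guide (24.0 to 30.8), and their part in these results was not tested. Bnip3l changed by -0.26 log2 (SE 0.029, adjusted p = 8.58e-10).

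Car9 was again higher, at 30.4 and 29.4 CPM in Rosa26 with IFNγ, 49.9 and 53.9 with sgRNA1 and 37.8 and 40.1 with sgRNA2 (0.59 log2, SE 0.059, adjusted p = 6.89e-11). Hif1a was at 202 and 213 CPM in Rosa26 with IFNγ, 226 and 238 with sgRNA1 and 223 and 211 with sgRNA2, and 1 sgRNA2 library lay below the higher control. Its call (0.11 log2, SE 0.034, adjusted p = 0.00717) was lost without the first Rosa26 IFNγ library (adjusted p = 0.2). Its partner Arnt, at 64.3 and 63.3 CPM in the controls and 51.3 to 58.4 in the Cop1-guide libraries, fell by 0.26 log2 (SE 0.053, adjusted p = 0.000126).

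In the glycolytic group, Pfkfb3 was at 56.8 and 60.2 CPM in Rosa26 with IFNγ, 35.4 and 36.8 with sgRNA1 and 34.1 and 39.4 with sgRNA2. This was a change of -0.69 log2 (SE 0.062, adjusted p = 3.25e-12). Pgam1, at 463 and 475 CPM in the controls, 518 and 527 with sgRNA1 and 478 and 494 with sgRNA2, rose by 0.10 log2 (SE 0.025, adjusted p = 0.000682). Hk2, Pfkp, Pgk1 and Eno2 fell, by 0.13, 0.094, 0.11 and 0.42 log2. The other 11 enzymes did not pass, among them Ldha (-0.0019 log2, SE 0.020), Aldoa (0.0025, SE 0.021) and Pkm (-0.036, SE 0.019). Aldoa averaged 2 opposite values against the same Rosa26 libraries, 0.069 log2 with sgRNA1 (adjusted p = 0.0191) and -0.064 with sgRNA2 (adjusted p = 0.0355). The enzymes' median was -0.025 log2, and that of the hypoxia targets was -0.081. Slc2a1, the main glucose transporter GLUT1, was at 226 and 215 CPM in Rosa26 with IFNγ, 217 and 210 with sgRNA1 and 203 and 192 with sgRNA2 (-0.10 log2, SE 0.035, adjusted p = 0.0174), so sgRNA1 overlapped the controls.

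Leaving out each library in turn, 10 of the 14 calls held in all 12 fits. Slc2a1 (adjusted p = 0.281) and Pfkp (0.252) lost theirs without the first Rosa26 IFNγ library, as Hif1a did, and Hk2 without the second (0.0838). Slc2a1 and Pfkp also lost theirs without 2 and 1 of the Cop1-guide libraries. When the 2 libraries of each population were summed, so that the 2 guides were the replicates, each Rosa26 group held 1 sample. Most member calls for Cop1 loss, like most calls over all genes, were lost in that fit. The calls it kept are not read as firmer.

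IFNγ in Rosa26 cells raised the hexokinases, Pfkfb3, Pfkp, Eno2, Slc2a1 and Vegfa and lowered Car9, Aldoc and several abundant enzymes. Called members were 11 higher and 9 lower, against 32.8% of all genes (16.6% higher, 16.2% lower). At a log2 CPM of at least 5, 42.5% of genes and 17 of 28 members were called. Upper quartile scaling gave 9 higher and 13 lower members, and 1605 higher and 2537 lower of all genes. Hk2, the inducible hexokinase, was at 123 and 127 CPM in vehicle and 212 and 222 with IFNγ (0.80 log2, SE 0.040, adjusted p = 1.12e-20), a rise of 73.7%. Pfkfb3 went from 33.9 and 39.6 to 56.8 and 60.2 CPM (0.67 log2, SE 0.073, adjusted p = 3.69e-10). Eno2, the minor enolase, went from 10.2 and 10.6 to 15.4 and 15.2 CPM (0.56 log2, SE 0.12, adjusted p = 0.000435). In all 3, both IFNγ libraries lay above both vehicle libraries, as they did for 19 of 35 tested members and 31.4% of all tested genes. Both lay below for 14 members and 33.9% of genes.

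Hk1 rose by 0.20 log2 (SE 0.031, adjusted p = 1.40e-06), Pfkp by 0.15 (SE 0.038, adjusted p = 0.00208) and Slc2a1 by 0.23 (SE 0.041, adjusted p = 2.10e-05). Slc2a1 read 196 and 179 CPM in vehicle. The abundant enzymes of the lower pathway fell slightly, with Pkm at -0.14 log2 (SE 0.022, adjusted p = 6.28e-07), Pgk1 at -0.12 and Eno1 at -0.10, as did Gpi1 and Aldoa. Ldha, at 2491 and 2455 CPM in vehicle and 2408 and 2354 with IFNγ, did not pass (-0.055 log2, SE 0.023, adjusted p = 0.0636). The 17 enzymes together took 1.56% and 1.54% of all counts in the vehicle libraries and 1.46% in each IFNγ library. Aldoc, the minor aldolase, went from 17.0 and 19.2 to 12.5 and 11.4 CPM (-0.59 log2, SE 0.12, adjusted p = 7.60e-05).

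Among hypoxia targets, Vegfa rose from 40.2 and 39.9 to 49.2 and 53.9 CPM (0.36 log2, SE 0.069, adjusted p = 4.36e-05), and Ddit4 (0.19) and Bnip3 (0.19) rose by less. Their calls were lost in 4 and 3 of the 12 fits that left out a library (adjusted p up to 0.18 and 0.179), and both under upper quartile scaling. Car9 fell from 50.9 and 48.4 to 30.4 and 29.4 CPM (-0.73 log2, SE 0.066, adjusted p = 2.92e-12), the largest decrease among the called members. Vhl, the recognition subunit for hydroxylated HIF, rose from 21.9 and 24.4 to 31.0 and 31.1 CPM (0.42 log2, SE 0.083, adjusted p = 6.89e-05). Hif1a rose (0.17 log2, SE 0.040, adjusted p = 0.000911) and Egln1 fell from 194 and 193 to 163 and 170 CPM (-0.22 log2, SE 0.037, adjusted p = 7.26e-06). The Hif1a call was lost without the first Rosa26 vehicle library (0.11 log2), as was that of Gpi1 (-0.076). That of Pfkp was lost without the first Rosa26 IFNγ library (0.12). Egln3, at 139 and 137 CPM in vehicle and 129 and 128 with IFNγ, passed narrowly (-0.10 log2, adjusted p = 0.0427) and did not in 10 of the 12 fits that left out a library, nor did Aldoa in 9 of them.

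In Cop1-guide cells the response to IFNγ kept the rises of Hk2 and Vhl and was small for Pfkfb3. Called members were 9 higher and 9 lower, against 34.2% of all genes (18.1% higher, 16.1% lower). At a log2 CPM of at least 5, 43.6% of genes and 15 of 28 members were called. Upper quartile scaling gave 7 higher and 13 lower members, and 1502 higher and 3038 lower of all genes. Hk2 went from 117 and 125 CPM to 195 and 197 with sgRNA1, and from 125 and 135 to 197 and 203 with sgRNA2 (mean 0.66 log2, SE 0.028, adjusted p = 2.79e-23). Vhl went from 20.6 to 25 CPM in the 4 vehicle libraries to 29.1 to 32.5 with IFNγ (0.42 log2, SE 0.059, adjusted p = 1.29e-07). Over all 12 libraries, the 6 with IFNγ lay above the 6 without for Vhl, Hk2 and Slc16a1 (the lactate transporter MCT1) and for 7.56% of tested genes, and no member lay below, against 4.85% of genes.

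Pfkfb3 went from 31.3 and 30.9 to 35.4 and 36.8 CPM with sgRNA1 and from 31.1 and 33.4 to 34.1 and 39.4 with sgRNA2. The mean change was 0.20 log2 (SE 0.055, adjusted p = 0.00377), and leaving out the second sgRNA2 IFNγ library took it to an adjusted p of 0.0707. Eno2 libraries in vehicle read 9.29 and 7.99 CPM for sgRNA1, then 8.12 and 8.55 for sgRNA2, and 13.7, 11.0, 10.5 and 10.7 with IFNγ in the same order (0.43 log2, SE 0.094, adjusted p = 0.000317). Car9 fell by 0.55 log2 (SE 0.044, adjusted p = 4.03e-14), Aldoc by 0.21 (SE 0.084, adjusted p = 0.0476) and Ndrg1 by 0.19 (SE 0.026, adjusted p = 5.58e-08). The Ndrg1 value combined -0.30 with sgRNA1 (adjusted p = 5.59e-09) and -0.082 with sgRNA2 (adjusted p = 0.102). Aldoc libraries in vehicle read 16.9 and 18.1 CPM for sgRNA1, then 12.3 and 13.9 for sgRNA2, and 15.8, 13.7, 12.7 and 10.4 with IFNγ in that order, with overlap between treatments. It lost its call in 8 of the 12 fits that left out a library. With sgRNA2 alone 8 members were called, and 3008 of 11904 genes. With sgRNA1 alone the counts were 15 members and 2674 genes.

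**Figure D3:**
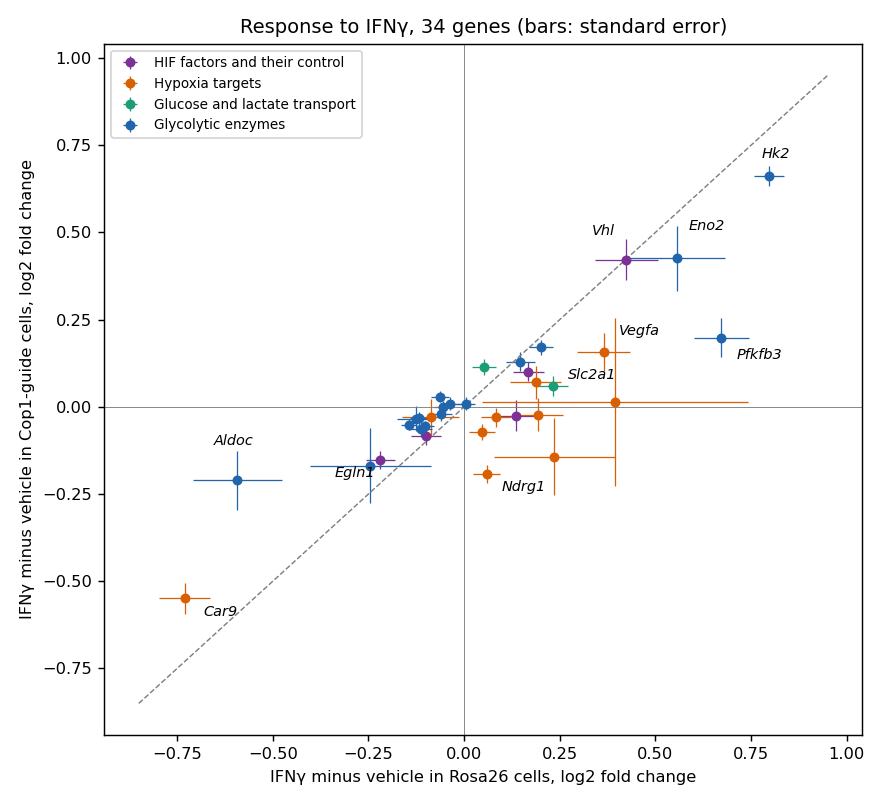
Response to IFNγ (log2 fold change, IFNγ minus vehicle) of 34 members in Rosa26 cells (x axis) and in Cop1-guide cells (y axis), coloured by role, with standard errors and the line of equal response (dashed). Vhl lies on the line at 0.42, Pfkfb3 lies below it at 0.67 against 0.20, and Ndrg1 at 0.059 against -0.19.

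The difference between the 2 responses was tested as an interaction, which called 5 members, 2 higher and 3 lower, against 5.74% of all genes (3.38% higher, 2.36% lower) and 9.34% of genes at a log2 CPM of at least 5. Pfkfb3 had the largest difference among the called members, at -0.47 log2 (SE 0.091, adjusted p = 0.000497), with -0.46 from sgRNA1 (adjusted p = 0.006) and -0.49 from sgRNA2 (adjusted p = 0.00334) against the same Rosa26 libraries. Ndrg1 differed by -0.25 log2 (SE 0.044, adjusted p = 0.000129), with -0.36 from sgRNA1 and -0.14 from sgRNA2 (adjusted p = 0.105). These 2 calls held in all 12 fits that left out a library. With the libraries of each population summed, neither passed, nor did any other gene, in a fit that left 1 sample in each Rosa26 group. Slc2a1 (-0.17 log2, SE 0.050, adjusted p = 0.0321), Pkm (0.094, SE 0.026, adjusted p = 0.0243) and Aldoa (0.093, SE 0.029, adjusted p = 0.0475) lost their call in 6, 6 and 11 of the fits that left out a library, and upper quartile or total-count scaling called 0 members higher. Pkm went from 4105 and 4010 CPM to 3640 and 3702 in Rosa26 cells, and stood at 3511 to 3876 in Cop1-guide vehicle and 3428 to 3752 in Cop1-guide IFNγ libraries. Aldoa went from 1282 and 1265 to 1221 and 1217 CPM in Rosa26 cells, against 1137 to 1258 and 1151 to 1280 in Cop1-guide cells. The responses of Hk2 (-0.13, SE 0.049, adjusted p = 0.102), Vegfa (-0.21, SE 0.087, adjusted p = 0.173) and Car9 (0.18, SE 0.080, adjusted p = 0.198) did not differ past the threshold.

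**Figure D4:**
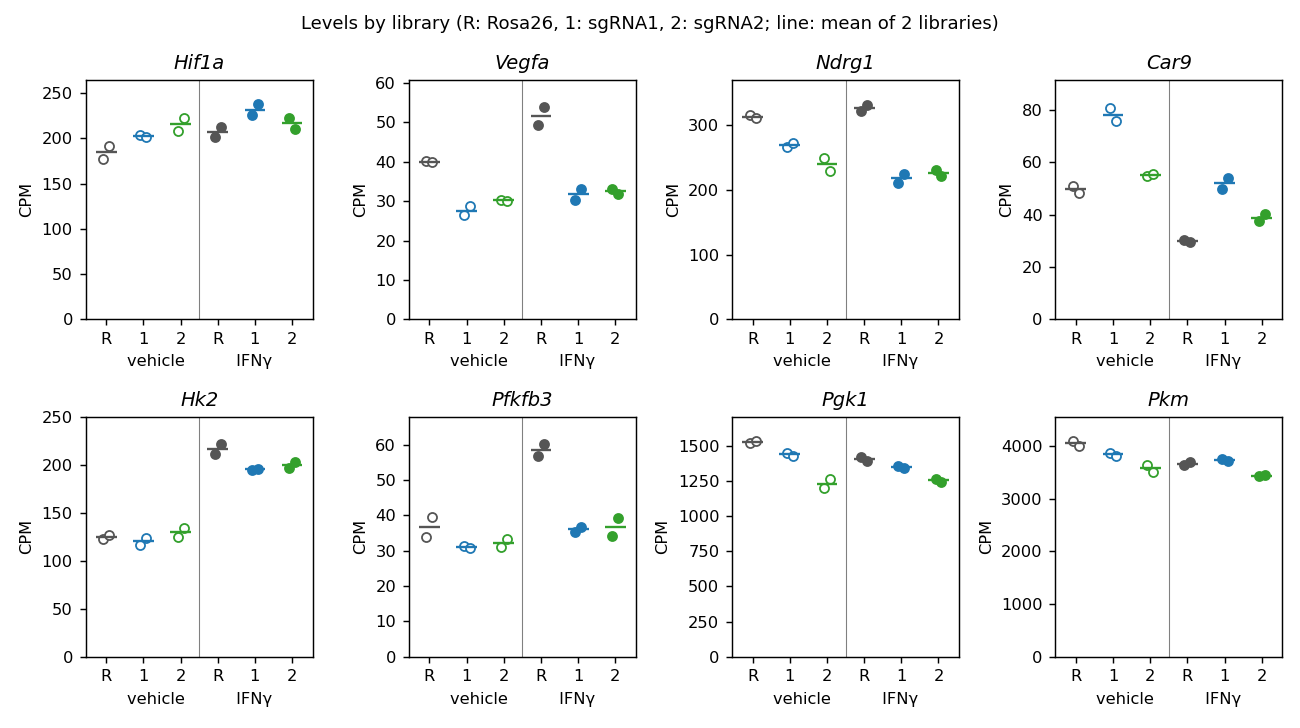
CPM of 8 members in the 12 libraries (points; open, vehicle; filled, IFNγ; line, mean of 2 libraries; axes start at 0), with R for Rosa26 and 1 and 2 for the guides. Pfkfb3 in the Rosa26 IFNγ libraries (56.8 and 60.2) stands above all 10 others, Hk2 separates by treatment, and Pgk1 and Pkm step down from Rosa26 to sgRNA1 to sgRNA2 in vehicle.

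The 2 Cop1 guides differed in these genes in 1 direction. In vehicle, sgRNA2 cells were lower than sgRNA1 cells for 20 of 35 members and higher for 0, against 5.99% of all genes called (2.58% higher, 3.41% lower) and 9.53% at a log2 CPM of at least 5, where 19 of 28 members were called. With IFNγ the count was 16 lower and 0 higher, against 9.41% of all genes (5.07% higher, 4.33% lower) and 15.5% at that level, with 16 of 28. The vehicle and IFNγ comparisons share no library, but both used the same sgRNA1 and sgRNA2 populations. For 15 members all 4 sgRNA2 libraries lay below all 4 sgRNA1 libraries, whatever the treatment, as they did for 4.03% of tested genes, and no member lay above, as did 3.64% of genes. DESeq2 called 18 of 33 and 15 of 29 members with an adjusted p, all lower, against 460 of 10185 and 735 of 7683 genes.

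Of the 17 glycolytic enzymes, 13 were lower with sgRNA2 in vehicle and 11 with IFNγ, with medians of -0.14 and -0.12 log2. Pgk1 differed by -0.23 log2 in vehicle (SE 0.025, adjusted p = 1.20e-08) and -0.11 with IFNγ (SE 0.025, adjusted p = 0.00365). Ldha libraries read 2518 and 2498 CPM in sgRNA1 cells against 2201 and 2310 in sgRNA2 cells in vehicle, and at 2485 and 2445 against 2298 and 2289 with IFNγ. These are differences of -0.15 (SE 0.023, adjusted p = 1.04e-05) and -0.10 log2 (SE 0.023, adjusted p = 0.00212), and no library overlapped. Pfkl differed by -0.22 and -0.15, Pfkp by -0.25 and -0.23, and Aldoa by -0.14 and -0.13 log2, and these 3 calls held in every fit that left out 1 library in both conditions.

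Pdk1, the kinase that holds pyruvate back from the mitochondria, differed by -0.28 log2 in vehicle (SE 0.050, adjusted p = 0.000164) and -0.23 with IFNγ (SE 0.051, adjusted p = 0.00252). The exceptions among the enzymes were Hk2, Pfkfb3, Eno2 and Ldhb, which passed in neither condition (-0.22 to 0.11 log2). The share of counts taken by the 17 enzymes was 1.503% and 1.492% with sgRNA1 and 1.36% and 1.38% with sgRNA2 in vehicle, and 1.44% and 1.44% against 1.35% and 1.35% with IFNγ.

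Of the 10 hypoxia targets, 5 were lower with sgRNA2 in vehicle and 4 with IFNγ, and the difference from the enzymes was not tested. Car9 differed most of those called, at -0.51 (SE 0.059, adjusted p = 5.99e-08) and -0.42 log2 (SE 0.065, adjusted p = 1.40e-05). Egln3, itself a HIF target, was at 158 and 157 CPM with sgRNA1 against 129 and 133 with sgRNA2 in vehicle, and 148 and 151 against 124 and 122 with IFNγ. Its differences were -0.27 and -0.28 log2, with adjusted p = 4.12e-06 and 2.08e-06. P4ha1 (-0.23 and -0.13) and Bnip3l (-0.19 and -0.15) were also called in both, but with IFNγ their calls were lost in 3 and 2 of the 12 fits that left out a library (adjusted p up to 0.444 and 0.0928). Vegfa (0.14 and 0.036) and Ddit4 (0.11 and -0.012) did not differ past the threshold between the guides. Ndrg1 was lower with sgRNA2 in vehicle (-0.17 log2, adjusted p = 0.00178, lost without the second sgRNA2 vehicle library at 0.106) and not with IFNγ. Cop1 itself differed by -43.2% in vehicle and -45.5% with IFNγ, sgRNA2 against sgRNA1, and each guide was 1 population, so guide, residual Cop1 and population cannot be told apart. Leaving out the first sgRNA1 IFNγ library lowered the IFNγ count of members, as it did the count over all genes.

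**Figure D5:**
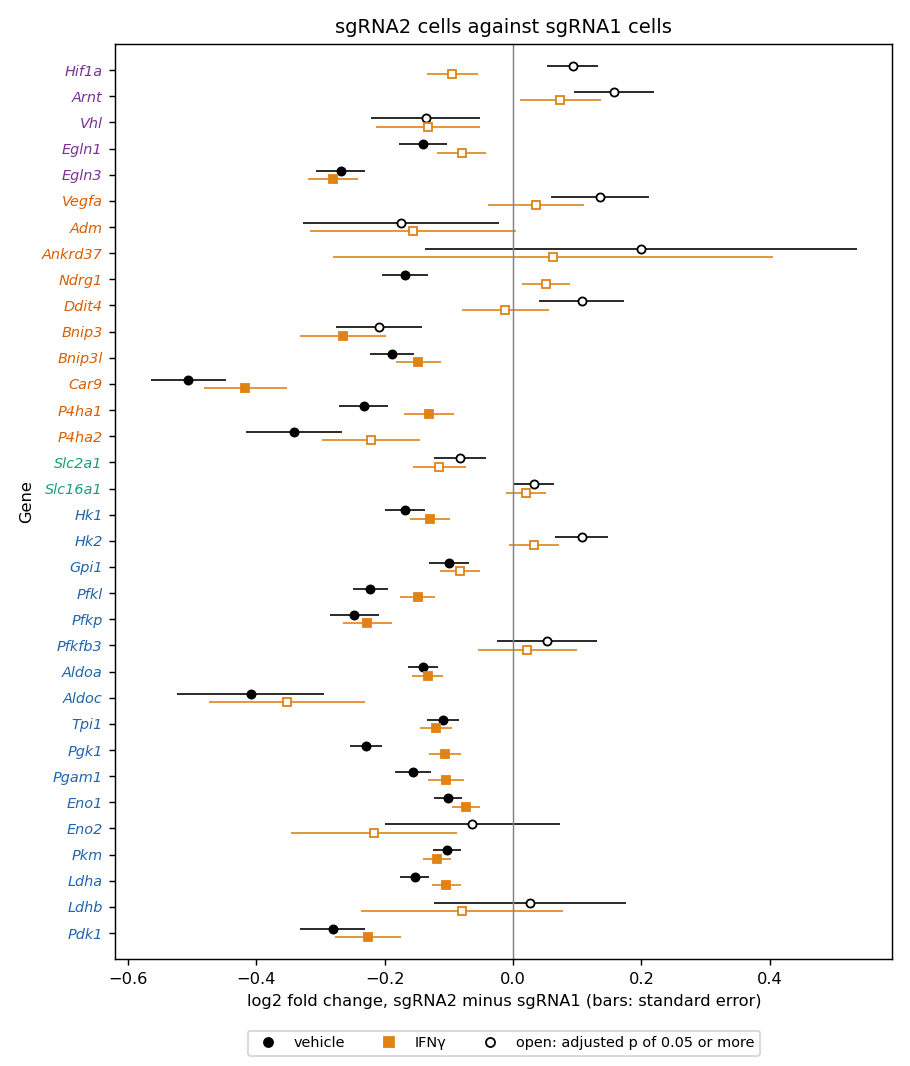
Log2 fold change of 34 members, sgRNA2 minus sgRNA1, in vehicle (black circles) and with IFNγ (orange squares), with standard errors; filled symbols have an adjusted p under 0.05. Every filled symbol lies left of 0, from -0.073 (Eno1 with IFNγ) to -0.51 (Car9 in vehicle), while Vegfa, Ddit4, Hk2 and Pfkfb3 are open.

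A wider list held 32 other hypoxia genes, of which 26 were tested. With Cop1 guides in vehicle, 3 rose and 14 fell, with a median of -0.17 log2, and with IFNγ 3 rose and 16 fell, with a median of -0.22, against medians of -0.0081 and -0.0045 over all genes, of which 35.8% and 40.6% were called. Among the falls were Edn1 (endothelin 1, -1.49 and -1.51 log2) and Hmox1 (haem oxygenase 1, -0.67 and -1.15). Edn1 had few counts. In vehicle it was at 3.5 and 2.8 CPM in Rosa26, 0.7 and 0.6 with sgRNA1 and 1.9 and 1.9 with sgRNA2. The value of -1.49 thus averaged 2 unlike guides, which differed by 1.48 log2 (edgeR, adjusted p = 0.00769). Pfkfb4 (0.38 and 0.54) and Mif (0.064 and 0.24) rose in both conditions, Cul2, the scaffold of the Vhl ligase, rose in vehicle (0.21), and Mxi1 rose with IFNγ (0.22). IFNγ in Rosa26 cells raised 12 and lowered 4 of the 26 (32.8% of all genes were called). The rises were led by Hmox1 (0.84), Edn1 (0.79) and Stc2 (0.54), and the falls by Angptl4 (-1.35), Plod1 (-0.39) and Mxi1 (-0.27). Angptl4 had few counts, at 0.57 to 1.62 CPM in these libraries. In Cop1-guide cells, where 34.2% of all genes were called, IFNγ raised 9, among them Edn1 (0.77), Stc2 (0.50) and Hmox1 (0.37). It lowered 4, among them Plod1 (-0.29) and Insig2 (-0.13).

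Of 27 other glycolysis and pyruvate genes, 20 were tested. With Cop1 guides 0 rose and 6 fell in vehicle, where 16.6% of all genes were called higher and 19.2% lower. With IFNγ 0 rose and 4 fell, where 19.8% of all genes were called higher and 20.7% lower. Taking both directions together, these shares lay below the 35.8% and 40.6% of all genes called. Gapdh, a glycolytic enzyme often used for scaling, was at 2670 and 2653 CPM in Rosa26 vehicle, 2400 and 2388 with sgRNA1 and 2222 and 2247 with sgRNA2 (-0.20 log2, SE 0.019, adjusted p = 2.19e-11). With IFNγ it was at 2442 and 2535 CPM, then 2375 and 2396, then 2310 and 2243 (-0.094 log2, SE 0.019, adjusted p = 0.000118). Slc2a6, a lysosomal hexose transporter with few counts, was at 0.98 and 1.08 CPM in Rosa26 vehicle and 0.047 to 0.26 in the Cop1-guide vehicle libraries. With IFNγ it was at 3.88 and 5.80 CPM in Rosa26 and 0.74 to 1.04 in the Cop1-guide libraries. Its fitted changes were -2.80 and -2.35 log2 for Cop1 loss and 2.22 and 2.67 for IFNγ in Rosa26 and Cop1-guide cells. The other falls named by rule with Cop1 guides were Pdk2 (-0.83) and Eno3 (-0.26) in vehicle and Mpc1 (-1.06) and Adpgk (-0.12) with IFNγ. Pdk2 and Mpc1 also had few counts. Pdk2 was at 2.70 and 1.91 CPM in Rosa26 vehicle and 0.66 to 1.87 in the Cop1-guide vehicle libraries (SE 0.32). Mpc1 was at 2.13 and 1.89 CPM in Rosa26 with IFNγ and 0.71 to 1.22 in the Cop1-guide IFNγ libraries (SE 0.36). IFNγ raised 2 and lowered 5 of the 20 in Rosa26 cells, near the 32.8% of all genes called. These included Pdk3 (0.22), Pdk2 (-1.49), Pfkm (-0.24) and Eno3 (-0.19). In Cop1-guide cells it raised 3 and lowered 3, near the 34.2% of all genes called. Among them were Pdk3 (0.28), Tigar (0.24), Pfkm (-0.20), Dlat (-0.092) and Pdha1 (-0.086).

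A limit applies to the abundant enzymes. Several, among them Eno1, Pgk1, Ldha and Aldoa, have near-identical copies or pseudogenes in the mouse genome, and how reads matching several places were counted is not given in the sources used here. Exons of 12 members overlap another annotated gene, such as Hk1 with Hk1os, Aldoa with Fam57b and Pfkp with Pitrm1, and reads from an overlap on the opposite strand cannot be told apart without strand information.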

How the data were processed

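RNA of 12 libraries of 4T1 cells was sequenced, 2 per group. The deposited table holds raw counts per gene; per the submitters' processing notes, STAR 2.4.0, HTSeq and DESeq2 1.10 and the mm10 build were used, and the treatment of multi-mapping reads and strand is not given in the sources used here. The row of totals was left out. Members and gene lists were chosen with earlier results of these data known.

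Counts were fitted with edgeR 4.0.16 in R 4.3.3 (TMM scaling, quasi-likelihood F test, 1 model of 6 group means). The model left 6 residual degrees of freedom. A median of 34.5 prior degrees of freedom per gene came from the spread over all genes. Genes passed filterByExpr (minimum count 10, total 15), which kept 11904. P-values were Benjamini-Hochberg adjusted over all of them, and a gene was called at 0.05. SE is the log2 fold change divided by the root of F. CPM used TMM-scaled library sizes, and lengths and exons are from GENCODE M21. Cop1 loss is the mean of both guides. The fit was tested on simulated data.

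Named are Cop1, all members and, by rule, up to 3 called genes in each direction per list and comparison, with Gapdh; some items of the lists and searches are not reported here. Values per library were given for 8 fixed members and those leading a comparison. Alternatives were RLE, upper quartile and total-count scaling, no or a stricter filter, DESeq2 1.42.0, a replicate block, only the groups compared, each guide alone, summed populations and each library left out. Counting error is small for the abundant members, where the spread between libraries sets the precision. It weighs more for members with fewer counts, such as Eno2 (169 to 360 per library), Vhl (475 to 815) and Vegfa (608 to 1226).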

Additional observations from a re-analysis of the deposited data

Results flagged for a closer look

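The difference in response to IFNγ between Cop1-guide and Rosa26 cells passed the interaction test (edgeR, adjusted p under 0.05) for 5 members: Pfkfb3 (-0.474 log2), Ndrg1 (-0.251), Slc2a1 (-0.172), Aldoa (0.0931) and Pkm (0.0935). Among the genes of the wider lists it passed for Hmox1 (-0.473, adjusted p = 0.000392), Higd1a (-0.221, adjusted p = 0.0208), Mif (0.178, adjusted p = 0.000192), Eno3 (0.18, adjusted p = 0.0193) and Gapdh (0.108, adjusted p = 0.0118). Hmox1 was at 37.4 and 39.1 CPM in Rosa26 vehicle and 68.1 and 68.8 with IFNγ, and at 22.5 to 26.9 CPM in the Cop1-guide vehicle libraries and 27.9 to 35.1 with IFNγ. Mif was at 777 and 767 CPM in Rosa26 vehicle and 709 and 695 with IFNγ, and at 795 to 813 CPM in the Cop1-guide vehicle libraries and 782 to 881 with IFNγ. The calls of Slc2a1, Pkm and Aldoa were lost with either guide alone and in 6, 6 and 11 of the 12 fits that left out a library, that of Slc2a1 also with DESeq2, and all 5 member calls with the libraries of each population summed.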

How the results depend on the processing

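Of 152 counts of called members under other settings, 135 stayed within 1.5 times of the reported count. Summing the libraries of each population left 1 sample in each Rosa26 group. Every comparison run that way gave fewer called members, and fewer called genes over all genes. With sgRNA2 alone the IFNγ count in Cop1-guide cells was 8, where 3008 of 11904 genes were called, and with sgRNA1 alone 15, where 2674 were. The interaction count of 5 became 3 with upper quartile scaling, 2 with sgRNA1 alone and 2 with sgRNA2 alone. In these 3 settings 671, 416 and 569 of 11904 genes were called. Leaving out 1 library gave 11 to 20 and 11 to 14 for Cop1 loss in vehicle and with IFNγ, 15 to 22 and 14 to 18 for IFNγ in Rosa26 and Cop1-guide cells, 2 to 7 for the interaction, and 14 to 20 and 9 to 17 between guides; a group left with 1 library is assumed to vary like the others. Reversed values came only from 1 guide alone: with sgRNA1, Pfkl (0.0444) and Ldha (0.0202) for Cop1 loss in vehicle, Pfkp (0.0196) with IFNγ and Rpia (0.00106) for IFNγ; with sgRNA2, Pgam1 (-0.013) in vehicle and Aldoa (-0.0638) with IFNγ. The cause was not tested. Scaling moved the higher and lower split to 2 and 18 with total counts for Cop1 loss with IFNγ, and with upper quartile to 4 and 11 for Cop1 loss in vehicle, 9 and 13 for IFNγ in Rosa26 and 7 and 13 in Cop1-guide cells; for the interaction, upper quartile gave 0 and 3 and total counts 0 and 4. Over all genes the first 4 of these splits were 1770 and 3135, 2199 and 2112, 1605 and 2537, and 1502 and 3038. For the interaction they were 339 and 332, and 305 and 346. No scaling moved the median of all genes by over 0.1 log2. It reached -0.055 with upper quartile for IFNγ in Cop1-guide cells, as large as some of the enzyme medians. Same-numbered libraries did not deviate together (correlations -0.0298 to 0.0446), so the numbers were not taken as pairs; the replicate block gave 18, 14, 21, 18, 4, 21 and 17 members and ended only the Aldoa interaction call. The interaction was not run on only the groups compared, which are all 6, summed populations were not run between guides, and a guide alone applies to no comparison within Rosa26 cells or between guides.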

Other observations

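The pentose phosphate pathway branches from glycolysis at glucose 6-phosphate and yields NADPH and ribose. All 7 genes of that list were tested. With Cop1 guides in vehicle, Rpia (0.34 log2, SE 0.045, adjusted p = 4.79e-08), Taldo1 (0.13) and Pgd (0.13) rose and Rpe (-0.14) fell, where 35.8% of all genes were called. With IFNγ, Rpia (0.30), Pgls (0.11) and Tkt (0.067) rose and 0 fell, where 40.6% of all genes were called (19.8% higher, 20.7% lower). IFNγ raised Pgd (0.14) and lowered Pgls (-0.15) and Tkt (-0.13) in Rosa26 cells, where 32.8% of all genes were called. In Cop1-guide cells (34.2%) it raised Rpe (0.16) and lowered Pgls (-0.11), Tkt (-0.11), Rpia (-0.097) and Taldo1 (-0.095), the last named after its value was seen. Between the guides, 0 of the 7 differed in vehicle and 4 (G6pdx, Taldo1, Tkt and Rpia) were lower with sgRNA2 in the presence of IFNγ, named here after their values were seen, against 5.99% and 9.41% of all genes called.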
